A study of Mus musculus with 79 samples.

Results

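The stress effect shared by 3 classes of cortical inhibitory interneuron was measured as the difference, per gene, between mice that had lived through unpredictable chronic mild stress (UCMS) and control mice, after averaging over the interneuron classes within each mouse. The classes, named for the marker each makes, were parvalbumin (PV), somatostatin (SST) and vasoactive intestinal peptide (VIP) neurons. For each mouse and gene, log2(normalized count + 4) was centred within each class over all its libraries and then averaged over the PV, SST and VIP libraries of that mouse, which gave 1 mouse value. The pyramidal (PYR) libraries took no part in the average and serve below only as a comparison. The average rested on 59 of the 79 libraries. These were 9 PV, 10 SST and 10 VIP libraries from 10 UCMS mice, and 10 of each class from 10 control mice. UCMS mouse U609 had SST and VIP libraries only, so its value is the mean of those.

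All animals were male C57Bl/6J mice with no transgene named in the labels. The UCMS mice received varied mild social and environmental stressors several times a day for 5 weeks and lived alone in their cages, and they stayed under stressors while behavioural tests were run. The control mice were housed in groups with littermates, so stress and single housing cannot be told apart. Each library held 130 cells of the medial prefrontal cortex, found with RNAscope probes in frozen sections and cut out by laser, and was made with a stranded total-RNA kit for very small inputs.

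PV, SST and VIP neurons are the main inhibitory classes of the cortex. PV cells fire fast and contact the cell bodies of pyramidal neurons, SST cells contact their dendrites, and VIP cells mostly inhibit other interneurons. Corticosteroids released under stress act on neurons through the receptors encoded by Nr3c1 and Nr3c2, which switch on a known set of target genes such as Fkbp5. Other classical stress readouts are the activity-dependent immediate early genes, the chaperones and the unfolded protein response.

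The libraries held 3642579 to 13305797 reads and 9033 to 20307 genes with at least 1 read. The probe genes fitted the labels of the captured cells. Sst had a median of 12280 normalized counts in UCMS and 12730 in control SST libraries, and medians of at most 261.7 in the other groups. Vip had medians of 4359 in UCMS and 4796 in control VIP libraries, and medians of at most 21.2 in the other groups. Pvalb had medians of 985.6 in UCMS and 743.4 in control PV libraries, and medians of at most 28.3 in the other groups. The interneuron libraries also held pyramidal RNA. Slc17a7, the vesicular glutamate transporter of pyramidal cells, had medians of 2616 in UCMS and 2746 in control PV libraries. In SST libraries its medians were 3076 in UCMS and 2991 in control mice. In VIP libraries they were 4700 in UCMS and 4622 in control mice, against 12930 in UCMS and 14330 in control PYR libraries. In such captured samples, fewer cells of a type and less RNA per cell cannot be told apart.

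No gene passed the test for a shared stress effect. Of 17844 genes with a mean of at least 10 normalized counts over the 59 libraries, 0 reached an adjusted p of 0.05 (0% called) in limma's moderated test over the 20 mice, and the smallest adjusted p was 0.345. At an unadjusted p under 0.05 there were 1039 genes (5.82%), 890 of them higher in UCMS mice (4.99%) and 149 lower (0.835%). That split depended on the model, with 361 higher and 277 lower when genes detected was a covariate, 353 higher and 334 lower in edgeR, and 308 higher and 395 lower in DESeq2. On the recovered reads edgeR called 34 genes (0.191%) and DESeq2 called 25 (0.14%). These count tests took the 59 libraries as separate samples, with class and arm as terms and no term for the mouse. Every gene called by edgeR had reads in 16 or fewer of the 59 libraries, and 21 of the 25 called by DESeq2 had reads in 20 or fewer. Both tests called 5 genes in common, and only H2-M2, detected in 8 libraries, among them is a named protein-coding gene. The genes described below are therefore those with the most extreme test values and those of the lists, given as measured differences, and none is shown to differ between UCMS and control mice.

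The differences as a whole lay to the side of UCMS mice on this scale, and not in every model. The median log2 difference over all genes was 0.13, and 65.1% of genes (11624 of 17844) were above 0. In edgeR the median was 0.026 with 53.3% of genes above 0, and in DESeq2 it was -0.0020 with 49.6%. The shift differed with abundance. It was 0.12 for the 4955 genes with a mean of 10 to 30 normalized counts, 0.26 for the 4238 genes with 30 to 100 and 0.25 for the 4094 genes with 100 to 300. It was 0.086 for the 3217 genes with 300 to 1000 and 0.0057 for the 1340 genes above 1000, where 51.9% of genes were above 0. Each list median in the text below is therefore given beside the median of all genes in a level range. That range is the one that holds the median level of the list. Medians by class and those of small nuclear RNAs are given without it.

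**Figure D1:**
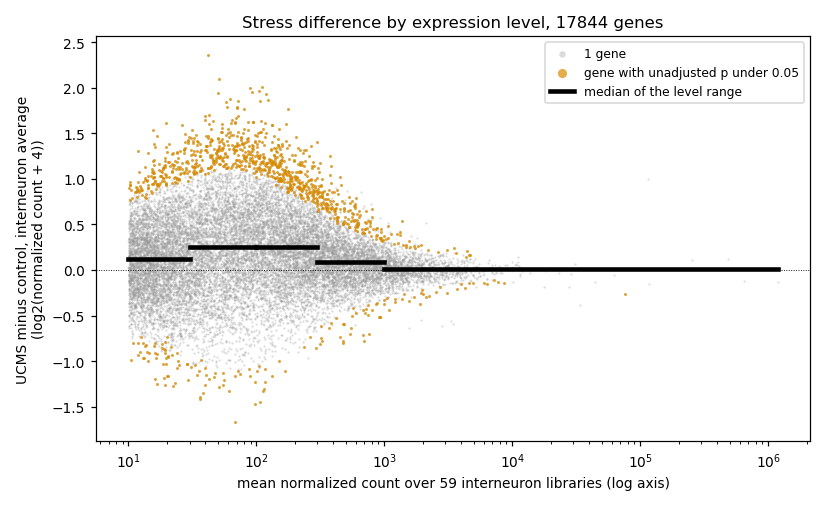
Each point is 1 of 17844 genes, with its mean normalized count over the 59 interneuron libraries on a log axis and its UCMS minus control difference of mouse values (log2) on the vertical axis. Black bars are medians of 5 level ranges, which stand highest between 30 and 300 normalized counts and near 0 above 1000, and orange points have an unadjusted p under 0.05.

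The number of genes detected moved the same way. Per mouse, with classes centred, 14732 ± 1215 genes were detected in UCMS and 13530 ± 2275 in control mice (SD, n = 10 each), with all 10 UCMS mice above the control median, and the two-sided permutation test gave p = 0.155. Read totals averaged 10003000 ± 1406000 in UCMS and 8792200 ± 1875600 in control mice (permutation p = 0.118, n = 10 each). After thinning every library to 3642579 reads, 14379 ± 1210 genes were detected in UCMS and 13213 ± 2202 in control mice, and the median difference over all genes was 0.13. With genes detected as a covariate the median was 0.023 and 53.1% of genes were above 0. Without the 6 libraries with the fewest reads it was 0.076. Which of these quantities leads the others was not tested.

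**Figure D2:**
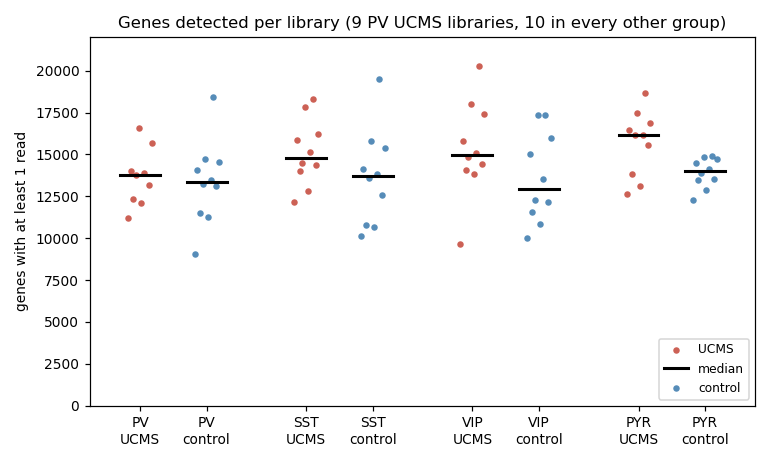
Points are libraries, by cell class and arm, with UCMS to the left of control; the vertical axis is the number of genes with at least 1 read and black bars are group medians. The median is 14942 in UCMS VIP and 12919 in control VIP libraries, and the groups overlap in every class.

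The data limited the shared effect most closely for abundant genes. The 95% interval of the difference lay within 2-fold in either direction for 6112 genes (34.3%). Among genes above a mean of 1000 normalized counts this held for 98.7%, with a median SE of 0.12 (log2), and for 86.8% of genes between 300 and 1000. Between 30 and 100 it held for 0.118%, with a median SE of 0.55. A 2-fold shared effect on a gene of that abundance was therefore mostly not resolvable with 10 mice per arm. Between 100 and 300 the interval lay within 2-fold for 19.9% of genes. Between 10 and 30 it did so for 23.75%, in a range where genes had reads in a median of 17 libraries. There the added 4 understates differences, so a narrow interval does not bound the change in expression.

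The 8 named genes with the highest test values had mouse values above the control median in all 10 UCMS mice, a pattern seen in 332 of all genes (1.86%). These 8 were chosen by the test of the same mouse values, so the pattern is no further evidence for them. None of the 17844 genes separated the arms, so the ranges of UCMS and control mice overlapped for each of them. Mcat, which encodes the malonyl transferase of mitochondrial fatty acid synthesis (ENSMUSG00000048755, GRCm38 chr15:83546797-83563787, minus strand), had the smallest p. In PV neurons it had reads in 8 of 9 UCMS and 3 of 10 control libraries, in SST neurons in 9 of 10 UCMS and 2 of 10 control libraries, and in VIP neurons in 6 of 10 UCMS and 4 of 10 control libraries. Its highest normalized count was 604.2 in UCMS PV and 37.2 in control PV libraries. The mouse values ran from -0.72 over a median of 1.23 to 2.89 in UCMS mice, and from -1.99 over -1.40 to 0.61 in control mice. The difference was 2.36 (SE 0.54, adjusted p = 0.345), and it was 1.32 in PYR neurons. Control libraries of Mcat were thus mostly at 0 and UCMS libraries mostly not, and the arms overlapped in every class.

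Wars2, the mitochondrial tryptophanyl-tRNA synthetase (chr3:99141068-99239186, plus strand), differed by 2.10 (SE 0.55). Its largest difference was in VIP neurons, where all 10 UCMS libraries had reads, with a median of 83.7 normalized counts, against 4 of 10 control libraries with a median of 0. Eny2, a subunit shared by the SAGA and TREX-2 complexes, differed by 2.00, Gpsm2, a spindle orientation protein, by 1.99, Bcap31, an export chaperone of the endoplasmic reticulum, by 1.96, and the zinc finger gene Zfp771 by 1.93. These were genes of low or middle abundance, detected in 39 to 50 of the 59 libraries. The differences of Eny2 were uneven over the classes, with 3.43 in SST, 2.06 in VIP and 0.41 in PV neurons.

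Prkaa2 and Armc8 were more abundant. Prkaa2 encodes the alpha2 catalytic subunit of AMP-activated protein kinase, a sensor of cellular energy (chr4:105029874-105109890, minus strand). Normalized counts of Prkaa2 in PV neurons ran from 146.9 over a median of 582.7 to 1065 in UCMS and from 0 over 320.6 to 580.5 in control libraries. In SST neurons they ran from 194.9 over 467.5 to 784.2 in UCMS and from 0 over 330.3 to 778.6 in control libraries. In VIP neurons they ran from 138.8 over 426.4 to 742 in UCMS and from 8.64 over 261.3 to 629.1 in control libraries. The UCMS medians were higher in all 3 classes, and low control libraries widened the control range. The difference was 1.14 (SE 0.31, adjusted p = 0.776), made of 1.33, 1.04 and 1.03 in PV, SST and VIP neurons, and it was -0.05 in PYR neurons. Armc8, a subunit of the CTLH ubiquitin ligase complex, differed by 1.02 (SE 0.29), with 0.95 in PV, 0.16 in SST and 1.96 in VIP neurons. Its VIP medians were 616.5 in UCMS and 357.8 in control libraries, and 1 control VIP library was at 0.

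**Figure D3:**
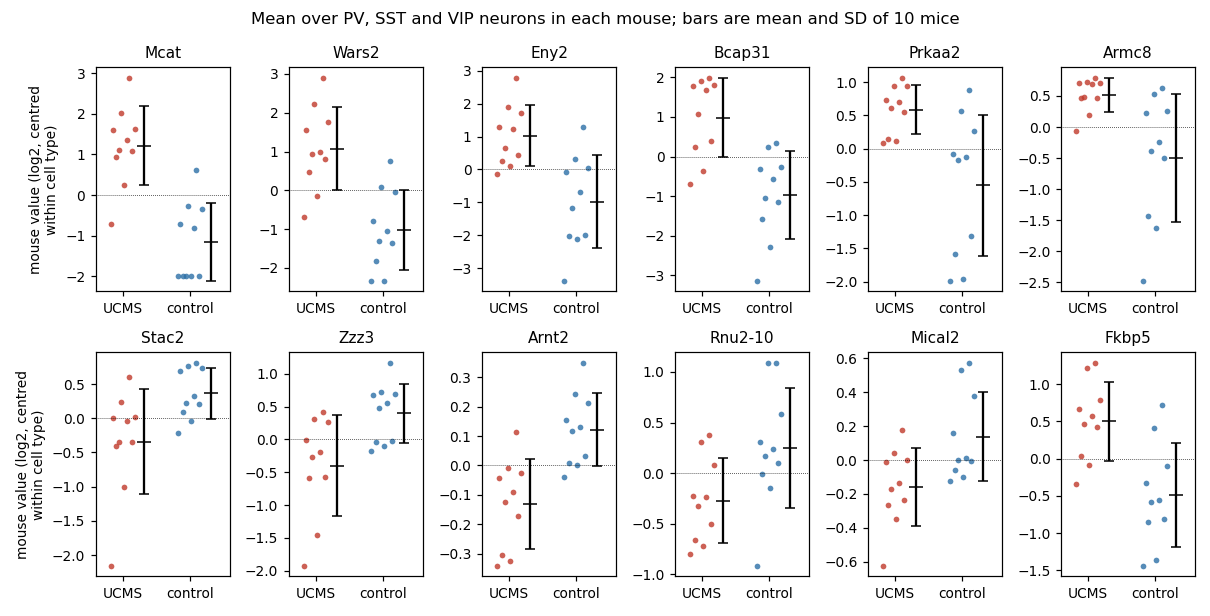
Each point is the mouse value (log2, centred within class and averaged over PV, SST and VIP) of 1 mouse, with UCMS on the left and control on the right of each panel; bars are mean and SD of 10 mice. For Mcat, Wars2, Eny2, Bcap31, Prkaa2, Armc8 and Fkbp5 all UCMS mice lie above the control median, and in no panel do the arms separate.

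The 8 named genes with the lowest test values had smaller differences. All 10 UCMS mice were below the control median for Zzz3, Arnt2, Pcdha2 and Ank1, which 114 of all genes showed (0.639%). As above, the genes were chosen by the test of these values. Zzz3, a subunit of the ATAC histone acetyltransferase complex (chr3:152395473-152462826, plus strand), had medians of 234 normalized counts in UCMS and 420.6 in control PV libraries. In SST neurons its medians were 311.2 in UCMS and 443.9 in control libraries, and in VIP neurons 506 in UCMS and 540.7 in control libraries. The difference was -0.80 (SE 0.26, adjusted p = 0.776). Zscan20, a zinc finger gene, was lower by similar amounts in each class, by -1.44, -1.57 and -1.33 in PV, SST and VIP neurons, against 0.56 in PYR neurons. The PYR medians were near each other, at 78.5 in UCMS and 81.0 in control libraries, and 1 control PYR library was at 0. The average for Zscan20 was -1.45 (SE 0.53), and 9 of 10 UCMS mice were below the control median.

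Pcdha2, an isoform of the clustered alpha protocadherins, differed by -1.67 (SE 0.56). Its reads may be shared with the other isoforms of that cluster, which use the same constant exons, so its value is uncertain. Stac2, a regulator of voltage-gated calcium channels, averaged -0.70 but was 0.05 in PV neurons, against -0.88 in SST and -1.34 in VIP neurons. Arnt2, a partner of neuronal PAS-domain transcription factors, averaged -0.25 (SE 0.08), most of it from VIP neurons. Arnt2 in VIP neurons ran from 1224 over a median of 1995 to 2748 normalized counts in UCMS and from 2209 over 2829 to 4582 in control libraries, while its SST difference was 0.00. Ank1, the membrane skeleton adaptor ankyrin 1, averaged -0.37, and -0.29 without control mouse U3, which had the highest value. Mical2, a flavoprotein that oxidizes actin, averaged -0.29.

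Rnu2-10 was the remaining gene of the low set and belongs to the U2 small nuclear RNAs, which recognise the branch site of introns. Its sequence and that of its neighbour Gm26316 are shown because U2 copies are alike or identical, and reads of identical copies cannot be told apart. They lie at GRCm38 chr11:101658238-101658428 and chr11:101604850-101605040, both on the plus strand, and the sequences are from GENCODE M21. In the first, the capitals mark the GTAGTA stretch that pairs with the branch site, at positions 33 to 38. In the second, they mark the single difference, C170T counted from the 5′ end.
Rnu2-10: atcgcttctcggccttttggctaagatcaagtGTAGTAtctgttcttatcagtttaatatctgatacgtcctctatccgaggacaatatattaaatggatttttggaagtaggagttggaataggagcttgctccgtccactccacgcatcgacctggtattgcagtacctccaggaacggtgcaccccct
Gm26316: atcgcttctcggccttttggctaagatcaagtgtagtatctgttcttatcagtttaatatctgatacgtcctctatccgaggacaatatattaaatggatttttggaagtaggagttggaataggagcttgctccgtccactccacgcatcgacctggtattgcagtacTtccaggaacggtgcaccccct

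Normalized counts of Rnu2-10 ran from 452.4 over a median of 594.8 to 1079 in UCMS SST libraries and from 509 over 861.8 to 3336 in control SST libraries. In VIP neurons they ran from 195.2 over 512.2 to 853.3 in UCMS and from 351.6 over 904.8 to 2548 in control libraries. In PV neurons the order of medians was the other way, with 1103 in UCMS and 903.5 in control libraries. The average difference was -0.52 (SE 0.18, adjusted p = 0.776), from 0.20 in PV, -0.78 in SST and -0.91 in VIP neurons, beside -0.94 in PYR neurons. The difference between the interneuron classes had an adjusted p of 0.999.

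Of 34 small nuclear RNA models tested, 23 were lower in UCMS mice, and their median difference was -0.21. Among the 9 U2 models 6 were lower and 3 were not, the highest being at 0.036. By class, 8 of the 34 were lower in PV, 29 in SST, 23 in VIP and 29 in PYR neurons. U1 models, which recognise the start of introns, had medians of 0.40 in PV, -0.40 in SST, -0.52 in VIP and -1.04 in PYR neurons. Counted as U1 were models of the length of Rnu1a1 that nearly match it. Rnu1b6, a U1 gene by name but of another length, was not among them. It had a mean of 12.6 normalized counts and differed by -0.41 in PV, -0.22 in SST, -0.31 in VIP and -1.27 in PYR neurons. The U1 gene Rnu1a1 averaged -0.17, and -0.052 without control mouse U3. These models are near copies and do not count as separate genes: 4 of the 9 U2 models are identical to Rnu2-10 over its length, itself included, and 7 of the 11 U1 models to Rnu1a1. The share of reads on small nuclear RNA was 0.168% ± 0.0417 in UCMS and 0.215% ± 0.0867 in control mice (SD, n = 10 each; permutation p = 0.146).

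Among 18 tested corticosteroid receptors and responsive genes, 12 were higher and 6 lower in UCMS mice. Their median was 0.21, against 0.25 for all genes of 100 to 300 normalized counts, and the medians by class were 0.049 in PV, 0.49 in SST, 0.22 in VIP and -0.039 in PYR neurons. Fkbp5, the co-chaperone that restrains the glucocorticoid receptor (chr17:28399094-28517527, minus strand), ran from 3.06 over a median of 105.8 to 367.7 normalized counts in UCMS PV libraries and from 0 over 63.6 to 243.5 in control PV libraries. In SST neurons it ran from 17.5 over 142.9 to 233.2 in UCMS and from 0 over 60.6 to 346.5 in control libraries. In VIP neurons it ran from 60.0 over 201.8 to 802.1 in UCMS and from 0 over 179.4 to 423.4 in control libraries.

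Every UCMS mouse lay above the control median for Fkbp5, with mouse values from -0.34 to 1.29 in UCMS and from -1.44 to 0.72 in control mice. The difference was 0.99 (SE 0.46, unadjusted p = 0.0332, adjusted p = 0.816), with 0.93, 1.28 and 0.77 in PV, SST and VIP neurons. It was -0.30 in PYR neurons, where the medians of normalized counts went the other way, at 114.2 in UCMS and 91.0 in control libraries. There 1 UCMS library was at 0. The test of the interneuron average against PYR gave 1.296 (SE 0.72, adjusted p = 0.957). The corticosteroid targets Cdkn1a, a cell cycle inhibitor, and Mt1, a metallothionein, differed by 1.15 and 1.14, and Cdkn1a had reads in only 21 of 59 libraries. Sgk1, a kinase induced by corticosteroids, differed by 0.48, and by 0.13 without control mouse U10, with UCMS mouse U607 far below the others. The glucocorticoid receptor gene Nr3c1 differed by 0.03 (SE 0.22) and the mineralocorticoid receptor gene Nr3c2 by -0.17 (SE 0.24), or -0.084 without UCMS mouse U606.

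The immediate early genes, which neurons switch on within minutes of firing, had 17 of 25 members higher and 8 lower in UCMS mice, with a median of 0.24, against 0.25 for genes of 100 to 300 normalized counts. The class medians were -0.13 in PV, 0.17 in SST and 0.36 in VIP neurons. Nr4a1, a nuclear receptor of this class, averaged 1.00 (SE 0.39, unadjusted p = 0.0109, adjusted p = 0.776). Its normalized counts in SST neurons ran from 188.4 over a median of 433.4 to 529.3 in UCMS and from 0 over 145.9 to 414.6 in control libraries. In PV neurons its medians were 163.3 in UCMS and 103.8 in control libraries, and in VIP neurons 372.2 in UCMS and 291.8 in control libraries. In 9 of 10 UCMS mice the value was above the control median, and the arms overlapped. Egr4 differed by 0.93 and Fosl2 by 0.70. Fos differed by 0.57, and by 0.27 without UCMS mouse U601, and its class values pointed to different sides, with 1.14 in PV, -0.97 in SST and 1.59 in VIP neurons. Arc differed by 0.42, and by 0.21 without control mouse U3. Npas4 differed by -0.53, and by -0.29 without control mouse U6.

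The list for the unfolded protein response and the integrated stress response had 28 tested genes, of which 19 were higher and 9 lower. Their median was 0.19, against 0.086 for genes of 300 to 1000 normalized counts. The median level of the list, 317.1, lay close to the lower bound of that range, and genes of 100 to 300 had 0.25. Hspa5, which encodes the abundant lumenal chaperone BiP, was above the control median in all 10 UCMS mice. It ran from 385.8 to 1622 normalized counts in UCMS and from 105.9 to 1052 in control SST libraries. Its medians were 720.8 in UCMS and 701.2 in control PV libraries, and 771.5 in UCMS and 681.3 in control VIP libraries. Its average difference was 0.41 (SE 0.19, adjusted p = 0.806). Dnajb9, its co-chaperone, differed by 0.89 and Ddit3, the transcription factor CHOP, by 0.87, neither with an unadjusted p under 0.05. In the cytosol, 15 of 20 chaperones were higher and 5 lower, with a median of 0.11, against the same 0.086. Dnaja1 differed by 0.45 (SE 0.17) and Stip1 by 0.55 (SE 0.23), both with a control mouse far below the rest, and Dnajb2 by 0.50, or 0.32 without control mouse U4. Of 35 ubiquitin and proteasome genes 24 were higher and 11 lower, with a median of 0.20, against 0.25 for genes of 100 to 300 normalized counts. The median level of this list, 281.2, lay close to the upper bound of that range, and genes of 300 to 1000 had 0.086. The proteasome subunit genes Psmd1, Psma3 and Psmd13 differed by 0.33, 0.83 and 0.94, and Psma3 differed by 0.52 without control mouse U2, while UCMS mouse U601 was far below the others for it.

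The energy and translation lists had medians close to those of genes of their abundance. Nuclear-encoded subunits of oxidative phosphorylation were higher for 34 and lower for 18 of 52 genes, with a median of 0.079, against 0.086 for genes of 300 to 1000 normalized counts. Sdhb, the iron-sulphur subunit of succinate dehydrogenase, was above the control median in all 10 UCMS mice and differed by 0.83 (SE 0.28). Most of that lay in VIP neurons, at 1.82, against 0.20 in PV and 0.41 in SST neurons. Ndufs1 of complex I differed by 0.45, and Atp5c1 of the ATP synthase by -0.39. The 13 genes encoded in mitochondrial DNA had a median of 0.044, against 0.0057 for genes above 1000 normalized counts, and their extremes were mt-Nd3 at 0.24 and mt-Nd6 at -0.12. Without control mouse U4 mt-Nd3 was at 0.12, and without control mouse U1 mt-Nd6 was at -0.078. Of 77 cytosolic ribosomal protein genes, 53 were higher and 24 lower, with a median of 0.11, against 0.086 for genes of 300 to 1000. Rps3, of the small subunit, was above the control median in all 10 UCMS mice, with medians of 696.5 in UCMS and 553.1 in control PV libraries, 934.2 in UCMS and 694.9 in control SST libraries, and 722.1 in UCMS and 575.9 in control VIP libraries. Its difference was 0.64 (SE 0.21, adjusted p = 0.776), and 0.42 without control mouse U3, which was far below the rest. Rpl31 differed by 0.72 and Rpl8, likewise of the large subunit, by -0.36.

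Genes of GABA synthesis and loading had differences close to 0. Of 9 genes for GABA synthesis, loading and uptake, 4 were higher and 5 lower, with a median of -0.019, against 0.0057 for genes above 1000 normalized counts. The GABA-synthesising enzyme gene Gad1 averaged -0.14 (SE 0.07), with 0.04 in PV, -0.11 in SST and -0.37 in VIP neurons, and its paralogue Gad2 averaged 0.01 (SE 0.09). Slc32a1, the vesicular GABA transporter gene, averaged -0.08 (SE 0.16), and -0.030 without control mouse U10. The intervals of Gad1 and Gad2 exclude a 2-fold shared difference. GABA receptor genes were higher for 10 and lower for 10 of 20, with a median of 0.014, against 0.086 for genes of 300 to 1000. Gabra5, a subunit of extrasynaptic GABA-A receptors, differed by 1.14 (SE 0.49) and Kctd12, an auxiliary subunit of GABA-B receptors, by 1.61 (SE 0.55), both above the control median in all 10 UCMS mice. Kctd12 had reads in 40 of 59 libraries, and its difference was 3.23 in SST, 0.44 in PV and 1.08 in VIP neurons.

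Ion channels and excitatory receptors had median levels above 1000 normalized counts, where all genes had a median of 0.0057. Of 23 voltage-gated sodium and potassium channel genes, 10 were higher and 13 lower, with a median of -0.016. Kcnc1, which encodes the Kv3.1 channel of fast-spiking cells, averaged -0.20 (SE 0.08), with -0.09 in PV, -0.27 in SST and -0.28 in VIP neurons. Scn1a, the sodium channel gene of interneuron axons, averaged -0.21 (SE 0.08), with -0.19, -0.23 and -0.26 in PV, SST and VIP neurons, and 9 of 10 UCMS mice were below the control median. UCMS mouse U609, which lacks a PV library, was far above the others for Scn1a. The paralogue Kcnc4 of Kcnc1 differed by 0.84 (SE 0.34). Ionotropic glutamate receptor genes were higher for 11 and lower for 9 of 20, with a median of 0.014. Gria1, an AMPA receptor subunit gene, averaged -0.13 (SE 0.06), with all 10 UCMS mice below the control median. Presynaptic release genes had a median of 0.024 over 25 genes, with Pclo at 0.08 and Syt1 at 0.09, or 0.048 without control mouse U3.

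Neuropeptides and their receptors had 20 of 27 members higher and 7 lower, with a median of 0.30, against 0.25 for genes of 100 to 300 normalized counts. The medians by class were 0.49 in PV, 0.072 in SST and -0.0096 in VIP neurons. Cck, the cholecystokinin gene, differed by 0.72 (SE 0.36), with 0.67, 1.01 and 0.57 in PV, SST and VIP neurons, and by 0.47 without control mouse U3. The somatostatin receptor gene Sstr3 differed by 1.11 (SE 0.55). Npy averaged 0.52 (SE 0.30), of which 2.30 was in PV, -0.02 in SST and -0.73 in VIP neurons, and without the PV libraries the average was -0.38. The corticotropin-releasing hormone gene Crh averaged 0.42 and its binding protein gene Crhbp 0.60, both led by PV neurons, at 1.25 and 1.69. In PV neurons Crh had reads in 4 of 9 UCMS and 2 of 10 control libraries. Without control mouse U9 Crh was at 0.15, and without control mouse U2 Crhbp was at 0.38. Cort differed by 0.58, and by 0.37 without control mouse U6. Penk differed by -0.31, and by -0.14 without UCMS mouse U607. The 8 SST neuron markers, several of which are in the peptide list, had medians of 0.91 in PV, -0.014 in SST and -0.12 in VIP neurons. Their summed normalized counts in PV libraries ran from 1400 over a median of 1883 to 2443 in UCMS mice. In control mice they ran from 265.2 over 1208 to 2575. That sum includes Npy, Crhbp and Cort themselves. Whether traces of SST cells in PV libraries bear on the PV values was not tested.

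The BDNF and neurotrophin receptor list was the pathway list with protein-coding members with the lowest median. Of its 10 tested genes, 2 were higher and 8 lower, and the median was -0.17, against 0.086 for all genes of 300 to 1000 normalized counts. Kidins220, a scaffold of Trk receptors, averaged -0.15 (SE 0.07), with all 10 UCMS mice below the control median. The sorting receptor genes Sorcs3 and Sorcs1 averaged -0.60 and -0.38, led by PV neurons at -1.35 and -1.18. Bdnf itself was sparse, with reads in 27 of 59 libraries, and averaged -0.20 (SE 0.48), with 0.87 in SST but -0.91 in PV and -0.70 in VIP neurons. Without control mouse U6 it was at -0.0021.

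Interneuron lineage factors had 13 of 20 members higher and 7 lower, with a median of 0.013, against 0.086 for genes of 300 to 1000 normalized counts. Lhx6, the factor of cells born in the medial ganglionic eminence, averaged -0.72 (SE 0.31), with all 10 UCMS mice below the control median, and the largest class value was -1.74 in VIP neurons. There Lhx6 was at trace level, with medians of 12.4 normalized counts in UCMS and 65.2 in control libraries, against 870.6 in UCMS and 1025 in control PV libraries. The summed PV markers in VIP libraries had medians of 2806 in UCMS and 3771 in control mice. That list includes Lhx6 itself and Kcnc1, which alone had medians of 2640 in UCMS and 3290 in control VIP libraries. The sum is therefore no measure of PV cells in VIP libraries. Whether traces of PV cells bear on the Lhx6 value was not tested. Nfix averaged -0.44. Elfn1, a postsynaptic adhesion gene of SST cells, averaged 0.54 (SE 0.21) but 1.68 in PV neurons, against -0.08 in SST and 0.16 in VIP neurons. Its level in PV libraries was low, with medians of 115.6 normalized counts in UCMS and 59.35 in control libraries. In SST libraries its medians were 2571 in UCMS and 2896 in control mice.

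**Figure D4:**
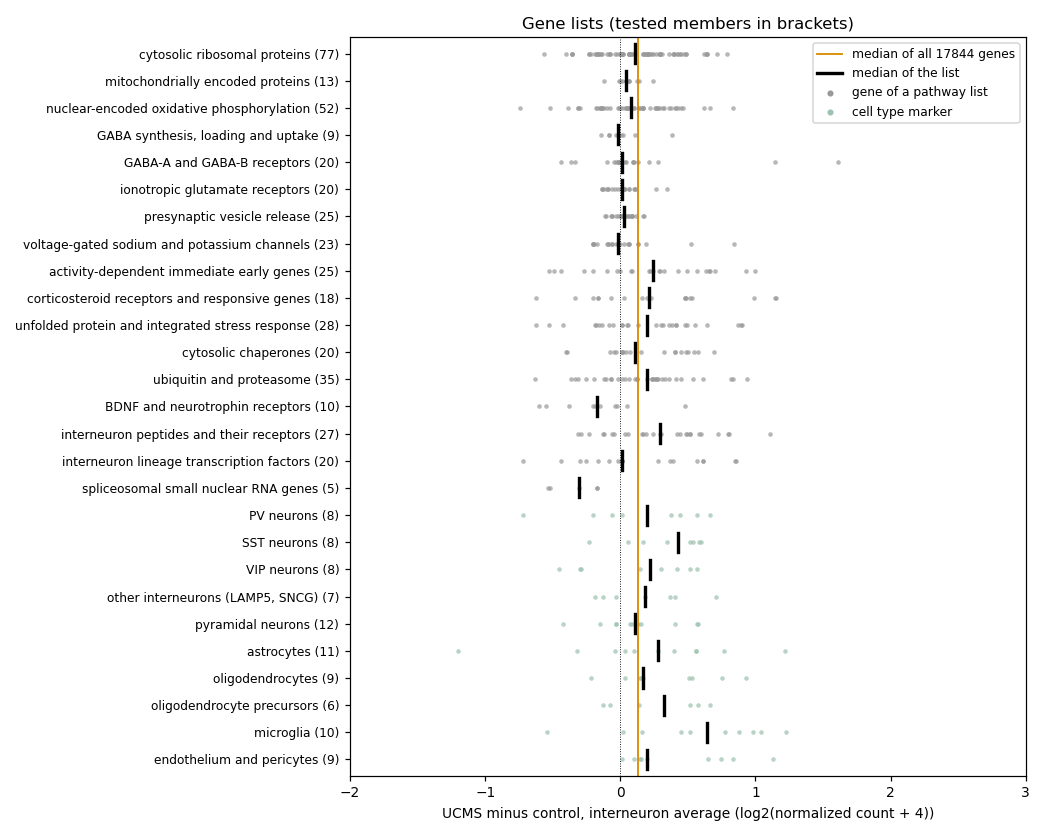
Each small point is a tested gene of a list, at its UCMS minus control difference of mouse values (log2); black bars are list medians and the orange line is the median of all 17844 genes, 0.13. The BDNF list lies at -0.17, the list of 5 tested genes for small nuclear RNAs at -0.31 (the 34 models of the annotation had -0.21), and the microglia markers at 0.64.

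The classes were next compared with each other. The difference had the same sign in PV, SST and VIP neurons for 3482 genes on the UCMS side (19.5%) and 1342 on the control side (7.52%). Within classes 0 genes passed in PV, SST or VIP neurons (0% each), with 654 (3.67%), 972 (5.45%) and 950 (5.32%) at an unadjusted p under 0.05. An unadjusted p under 0.05 in the same direction was seen in at least 2 classes for 74 genes (0.415%) and in all 3 for 0 genes. The median over all genes was 0.038 in PV, 0.15 in SST and 0.16 in VIP neurons. It was 0.11 in PYR neurons, so the shift to the UCMS side was not particular to interneurons. The median number of genes detected in PYR libraries was 16186 in UCMS and 14012 in control mice.

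No gene passed the test for a difference of the stress effect between the classes either (0% called), and 761 (4.26%) had an unadjusted p under 0.05. The 3 named genes with the smallest p were Vps50, Zfp322a and Srpx2, with an adjusted p of 0.999 each. Vps50, a trafficking factor of dense-core vesicles, had medians of 422.9 normalized counts in UCMS and 204 in control SST libraries, but 260.2 in UCMS and 608.4 in control VIP libraries. The zinc finger gene Zfp322a had 287.7 in UCMS and 119.2 in control SST libraries, but 51.0 in UCMS and 219.4 in control VIP libraries. Srpx2, a secreted synapse factor, had reads in 8 of 9 UCMS and 4 of 10 control PV libraries, against 0 of 10 UCMS and 1 of 10 control VIP libraries.

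**Figure D5:**
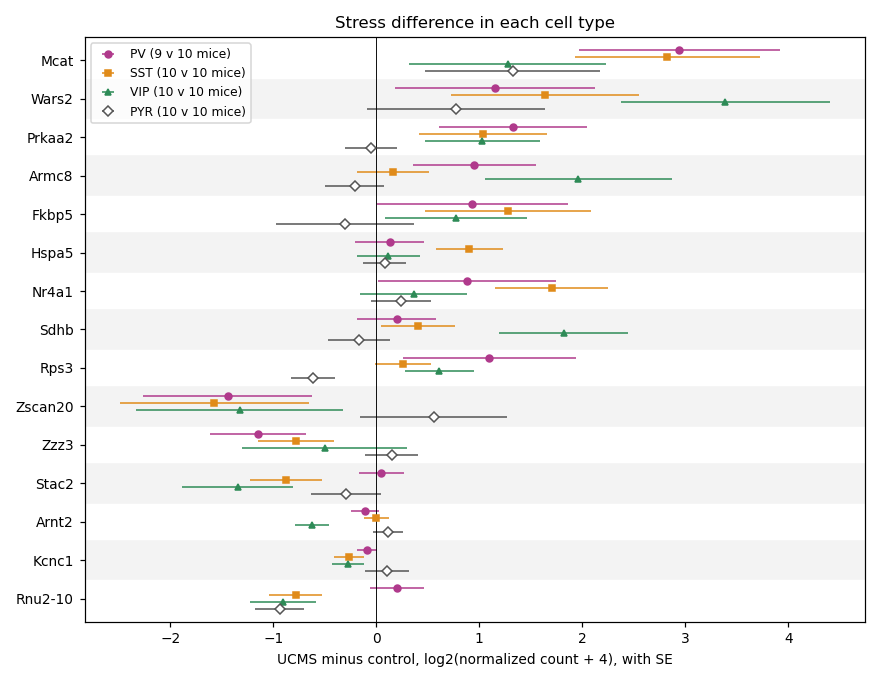
Points are UCMS minus control differences of log2(normalized count + 4) with SE bars in PV (9 UCMS and 10 control mice), SST, VIP and PYR neurons (10 each). Prkaa2 and Fkbp5 lie above 0 in the 3 interneuron classes and at or below 0 in PYR neurons, and Rnu2-10 lies below 0 in all but PV neurons. The PYR medians of Fkbp5 are 114.2 normalized counts in UCMS and 91.0 in control libraries.

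The shared effect was also set against the effect in PYR neurons of the same mice. No gene passed (0% called; smallest adjusted p = 0.315), and 931 genes (5.22%) had an unadjusted p under 0.05. Pqlc3, a lysosomal membrane transporter gene, averaged 1.04 in interneurons but -2.99 in PYR neurons, where 5 of 10 UCMS libraries had reads, with a median of 0.355 normalized counts, against all 10 control libraries with a median of 65.6. The difference between the effects was 4.03 (SE 0.83). Zcchc9, a zinc knuckle gene, averaged 1.32 in interneurons and -2.39 in PYR neurons. Zfp266 had medians of 274.5 in UCMS and 59.1 in control PYR libraries, and the effect in interneurons minus that in PYR neurons was -2.33 (SE 0.60, adjusted p = 0.919).

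Genes of the fixed set differed in the same comparison by less. Bsn, the active zone scaffold bassoon, had medians of 16870 normalized counts in UCMS and 20570 in control PYR libraries, and its interneuron minus PYR difference was 0.28 (SE 0.08). Lars2, the mitochondrial leucyl-tRNA synthetase gene, averaged -0.17 in interneurons, -0.11 without UCMS mouse U605, and -0.62 in PYR neurons. Atp11b, a phospholipid flippase gene, averaged 0.27 in interneurons, 0.16 without control mouse U3, and 0.70 in PYR neurons. Rps3 had medians of 544.3 in UCMS and 873.7 in control PYR libraries, and its interneuron minus PYR difference was 1.26 (SE 0.35, adjusted p = 0.919). The control PYR libraries come from the same mice as the control interneuron libraries.

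Markers of glia, vessels and other neurons were present in the interneuron libraries. Of 11 microglia markers 10 were tested, and 9 were higher and 1 lower in UCMS mice. Their median was 0.64, against 0.26 for genes of 30 to 100 normalized counts. By class it was 0.94 in PV, 1.05 in SST and -0.083 in VIP neurons, so it was not shared by all 3. The summed normalized counts of these markers overlapped widely, at 237.6 to 805.7 in UCMS and 237 to 901.7 in control mice. C1qc, a complement subunit gene, averaged 1.23 (SE 0.56), above the control median in all 10 UCMS mice. Aif1 averaged 0.88 and had reads in 12 of 59 libraries. All 9 tested endothelial and pericyte markers were higher, with a median of 0.20, against the same 0.26. Their sums were 329.1 to 814.6 in UCMS and 308.9 to 687.1 in control mice, with Rgs5 at 1.13 and Slco1a4 at 0.83.

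Astrocyte markers were higher for 8 and lower for 3 of 11, with Gja1 at 1.22, or 0.81 without control mouse U10, and Gfap at -1.20, and their sums were 6829.5 to 12402 in UCMS and 6967.1 to 11338 in control mice. UCMS mouse U609 was far above the others for Gfap. Oligodendrocyte markers were higher for 8 and lower for 1 of 9, with Mag at 0.93, Cnp at 0.75 and sums of 1245.8 to 4887.2 in UCMS and 1154.2 to 2980 in control mice. Markers of oligodendrocyte precursors had a median of 0.32 over 6 genes, with sums of 292.3 to 965.3 in UCMS and 330.0 to 711.1 in control mice. Markers of pyramidal neurons were higher for 8 and lower for 4 of 12, with sums of 11848 to 16016 in UCMS and 11756 to 17061 in control mice. In VIP libraries that sum had medians of 20750 in UCMS and 20370 in control mice, above those of the VIP markers at 16180 in UCMS and 18340 in control mice. Of 15 measures of library make-up, which left out the summed PV, SST and VIP markers, none passed after adjustment. The smallest p was that of the share of reads on mitochondrial ribosomal RNA, at 8.60% ± 0.928 in UCMS and 7.78% ± 0.876 in control mice (SD, n = 10 each; permutation p = 0.0592, adjusted p = 0.537). The part of these markers and measures in the gene differences was not tested.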

How the data were processed

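The deposited table holds, per gene and library, a signal: reads scaled by the authors with 1 size factor per library. The submitters' processing notes list HISAT2, SAMtools 1.3, DESeq2 and the build GRCm38 (mm10); the counter, the annotation and strand use were not given in the sources used here, so reads of overlapping, antisense or near-identical genes cannot be told apart. Of 38879 identifiers 38636 matched GENCODE M21 and 243 did not; 26 symbols had become dates and 183 were blank. Dividing each column by its smallest positive value gave whole reads, within 0.001, for at least 99.997% of values per library; for SST library U8 that value was close to 1, so scaling of that column could not be checked. No libraries were identical. A count of 0 allows up to 3 expected reads, for counting error only.

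The main test was limma 3.58.1 (R 4.3.3; trend, robust empirical Bayes) on 1 mouse value per gene, restricted to genes averaging 10 or more normalized counts, with p adjusted by Benjamini-Hochberg and called at 0.05; the added 4 understates differences of low genes. limma with the same settings served for the other comparisons. Within classes it used the values of the libraries of that class. Between classes it used the 59 library values with mouse and class as fixed terms, and tested the class by arm terms together. Against PYR it used, per mouse, the mouse value minus the centred PYR value. Measures of library make-up had two-sided permutation tests with 100000 resamples. Tests were tested on simulated data. Count tests used edgeR 4.0.16 and DESeq2 1.42.0 on recovered reads of the 59 libraries, with class and arm as terms. They had no term for the mouse, so libraries of 1 mouse counted as separate.

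Libraries with the same number come from the same mouse; after removal of group means, 2 libraries of a mouse correlated at a median of 0.0086 (-0.00092 between mice), with 0 of 58 pairs above 0.1.

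The members, lists, tests and alternatives were chosen with earlier results of these data known. Named were the 8 most extreme genes per direction, genes at an unadjusted p under 0.05 in the same direction in all 3 classes, the 3 smallest p between classes and against PYR, up to 3 extreme members per list and a fixed set; some are left out, a few of them because they are not reported here, unnamed gene models were only counted, and Gm26316 and H2-M2 were chosen after their values were seen.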

Additional observations from a re-analysis of the deposited data

Results flagged for a closer look

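In 16 of 202 groups of 10 mice, the highest or lowest mouse stood far from the nearest other; chance flags about 1 group in 20. Among UCMS mice, U601 had mouse values (log2) of -0.56 for Dnaja1, -1.70 for Psma3 and 2.94 for Fos. U606 had -1.28 for Rpl31 and -1.30 for Fosl2, and U607 had -1.70 for Sgk1. U609, which has no PV library, had 0.45 for Scn1a and 2.93 for Gfap, and a summed oligodendrocyte marker level of 4887 normalized counts, against 2890 in the next mouse. U610 had 17480 genes detected, against 15230 in the next mouse. Among control mice, U3 had 0.94 for Ank1, -2.42 for Rps3 and -1.20 for Dnaja1. U6 had -1.18 for Nr3c1, U10 had -1.75 for Stip1, and U4 had 1.65 for Aif1, where the other control mice were all at the floor of -0.67.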

How the results depend on the processing

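The count of 0 genes for the shared effect held in every limma setting run: pseudocounts 1 and 16, all genes, genes averaging at least 50, quantile normalization, covariates, other weightings of mice and classes, and each mouse left out (0 to 0 genes). With the mouse as a random replicate block over the 59 libraries, the count was also 0 and the median difference 0.13, and the block changed no call. edgeR called 34 genes and DESeq2 25. The median over all genes was 0.10 to 0.18 with each mouse left out, but -0.0020 with DESeq2, 0.026 with edgeR and 0.023 with genes detected as a covariate; quantile normalization gave 0.054 and 56.9% of genes above 0. The cause was not tested. Of 85 named genes, 76 kept their sign in all alternatives. The others, all near 0 or uneven over classes, turned. Without the PV libraries Gad2 was -0.10, Bdnf 0.083, Npy -0.38 and Crh -0.013; without SST Nr3c1 was -0.064, Nr3c2 0.062 and Penk 0.40; without VIP Slc32a1 was 0.019, Bdnf 0.046 and Rnu1a1 0.0085. Rnu1a1 was 0.056 by the median over classes. Nr3c1 was -0.0010 with edgeR and -0.043 with DESeq2, and Gad2 -0.0020 with DESeq2 and -0.043 with genes detected as a covariate. Without the 6 libraries with the fewest reads, an alternative chosen after seeing the data like thinning and scaling to nuclear protein-coding reads, Slc32a1 was 0.019 and Bdnf 0.098. With each mouse left out Gad2 ran from -0.045 to 0.039 and Nr3c1 from -0.10 to 0.11. The 16 extreme genes, chosen by their test values in these data, kept their sign throughout, which is no separate support. Their lowest adjusted p in a limma alternative was 0.108. Of the 85, 26 moved by over 1.5 times without some mouse. Median SEs were 0.44 to 0.55 (log2) for genes under 300 normalized counts. Thinning to 3642579 reads left 1054 genes at an unadjusted p under 0.05, against 1039.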
